A study of Mus musculus with 16 samples.

Results

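The response of LysM-Cre control macrophages to RANKL was followed across every gene that the authors kept in the count table of their SREBP2 experiment. It rests on 4 of the 16 RNA-seq libraries of the series, 2 with M-CSF alone and 2 with M-CSF and RANKL, and on 10764 of the 21497 genes of that table. The cells were bone marrow-derived macrophages (BMMs) of 12-week-old female mice that carried Cre under the lysozyme M (Lyz2) promoter and wild-type Srebp2 alleles. BMMs were grown in M-CSF, given as supernatant of L929 cells, and RANKL was added for 3 days at 40 ng/mL by the sample labels and at 50 ng/mL by the methods of the study. The same table holds SREBP2dM cells, in which the same Cre removes floxed Srebp2 in myeloid cells, and a second table holds C57BL6 wild-type and IRF7-deficient cells given the same treatments, all at day 3 and from female mice. The age of the mice behind the second table is not in the labels, and another assay of such BMMs in the study used 8-week-old mice. M-CSF was present in all of these groups, so every value below is the effect of RANKL on top of M-CSF. The study calls its replicates biological, but the labels do not say whether they are separate mice or cultures, so p-values measure the spread between these samples.

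RANKL is the cytokine that turns macrophage precursors into osteoclasts, the multinucleated cells that resorb bone. It binds RANK (Tnfrsf11a), recruits TRAF adaptors and, together with calcium signals from receptors that pair with the adaptors DAP12 and FcRγ, switches on NFATc1. NFATc1 in turn drives the genes for cell fusion, for acid secretion and for matrix degradation, while factors such as IRF8 and BCL6 hold this program back in macrophages. M-CSF, acting through Csf1r, keeps precursors alive and dividing.

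The 4 LysM-Cre libraries held 10353042 to 13387849 counts, so that 1 count was worth 0.071 to 0.104 counts per 1000000 counts (CPM). Replicates differed beyond counting noise, with a chi-square per degree of freedom of 17.43 between the M-CSF libraries and 17.14 between the RANKL libraries. M-CSF replicate 1 stood above replicate 2 for 44 of 44 interferon-stimulated genes, and results that rest on these genes are given with and without each M-CSF library. Other lists differed the other way. Replicate 1 was the higher for 1 of 30 ribosomal protein genes, 1 of 26 amino acid response genes and 3 of 37 respiratory chain genes, against 4814 of all 10764 genes. Osteoclast markers were high with RANKL and low without it, with a sum over 10 markers of 98 and 100 CPM in M-CSF against 71037 and 63034 CPM with RANKL. Nfatc1 alone gave 53.5 and 58.1 CPM of the M-CSF sums. Macrophage markers summed to 6062 and 5780 CPM in M-CSF and to 6281 and 6000 CPM with RANKL, although 5 of 8 were lower and 1 was higher. Fcgr1, a receptor for IgG, fell from 275 and 231 to 28.6 and 21.7 CPM, and Cd68, a lysosomal membrane protein, rose from 1050 and 1171 to 2422 and 2142 CPM. Neutrophil markers were low and moved with the treatment, with 9 of 9 tested genes lower and sums of 285 and 269 CPM in M-CSF against 7.83 and 13.1 CPM with RANKL. B cell, dendritic cell, endothelial, stromal and T or NK cell markers each summed to at most 41.5 CPM in a library, and Gzma, Fcer1a, Cma1, Hba-a1, Hbb-bs, Alas2, Col3a1, Bglap, Emcn and the 4 adipocyte markers were at 0.

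RANKL changed the level of 6208 of the 10764 genes measured. By the quasi-likelihood F-test of edgeR, with p adjusted by Benjamini-Hochberg across all 10764 genes, 3125 genes were higher with RANKL (29.0%) and 3083 were lower (28.6%), and 4556 were not called at an adjusted p of 0.05. The median log2 fold change over all genes was 0.0. Counts of list members below stand against these shares of 29.0% and 28.6%, and a list near them is not set apart from all genes. The lists were chosen with earlier results of these data known. A count far from these shares therefore describes the list and is no test of it. By the fold changes of the model the rises reached further than the falls, with 348 genes called higher and 105 called lower by over 10-fold. By over 100-fold the counts were 120 against 7. For genes at 0 counts in both libraries of a treatment, such folds depend on how the model handles zeros. These were 56 of the called rises and 3 of the called falls, so the size of this lead is not exact. All 6208 called genes had RANKL libraries that lay wholly above or wholly below the M-CSF libraries, as did 80.8% of all genes. Where a lack of overlap is given below, it describes the values and adds no support to a call. These are bulk samples, so more cells of a kind and more RNA per cell cannot be told apart. The authors' filter left genes whose highest group mean was at least 2.78 CPM, so a gene silent in M-CSF was kept only where another group expressed it, and 56 of the genes called higher had no count in either M-CSF library.

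**Figure D1:**
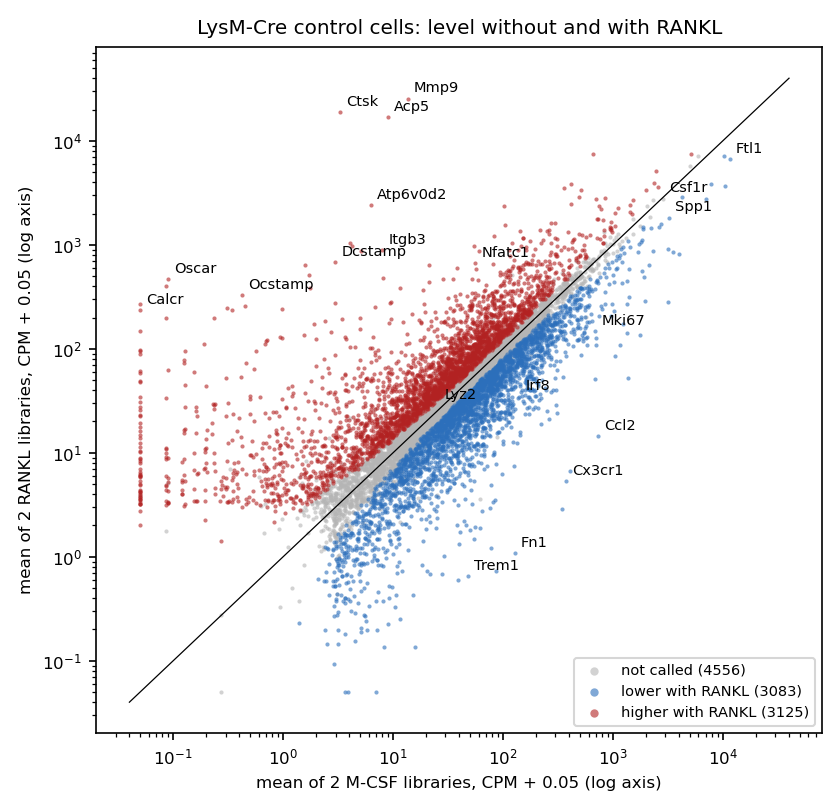
Mean level of each of the 10764 genes in the 2 M-CSF libraries (x axis) and the 2 RANKL libraries (y axis), both as CPM + 0.05 on log axes, with genes called higher in red, lower in blue and not called in grey. Mmp9, Ctsk and Acp5 sit at the top, at 3.23 to 13.6 CPM without RANKL and at 16975 to 25466 CPM with it, while Csf1r lies on the diagonal and Ccl2, Cx3cr1 and Fn1 lie far below it.

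Genes of bone resorption had the largest levels in the RANKL libraries. Acp5, the tartrate-resistant acid phosphatase used to stain osteoclasts, rose from 8.77 and 8.94 CPM in M-CSF to 17368 and 16581 CPM with RANKL, a log2 fold change of 10.9 ± 0.22 (SE, adjusted p = 3.43e-08, n = 2). Ctsk, the cathepsin that degrades bone collagen, rose from 4.27 and 2.2 CPM to 22134 and 15685 CPM (log2 fold change 12.52 ± 0.52 SE, adjusted p = 1.47e-06). Mmp9, a gelatinase, rose from 14.3 and 13 CPM to 25850 and 25083 CPM (10.87 ± 0.22 SE on the log2 scale, adjusted p = 3.43e-08). The groups did not overlap for any of the 3 genes, and the spread between replicates was widest for Ctsk. Together with RANKL, Mmp9 took 2.41% of all counts, Ctsk 1.78% and Acp5 1.6%, against 0.00146%, 0.000347% and 0.000946% in M-CSF, where Ftl1 at 1.23% and Fth1 at 1.11%, the ferritin chains, and Ctsb at 1.1%, a lysosomal cathepsin, led. Per kilobase of exon, Ctsk was the most abundant of them with RANKL at 12506 CPM per kb, followed by Acp5 at 8362 and Mmp9 at 7196 CPM per kb. In M-CSF their levels were 2.14, 4.36 and 3.86 CPM per kb.

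All 16 genes of the acid and protease machinery were called higher, where 29.0% of all genes were, and their median log2 fold change was 5.17. Car2, the carbonic anhydrase that supplies protons, rose from 0.158 and 0.355 CPM to 251 and 240 CPM. Mmp14, a membrane-bound metalloproteinase, rose from 5.37 and 4.76 CPM to 957 and 784 CPM, and Ckb, the creatine kinase that buffers ATP, from 628 and 698 CPM to 8441 and 6542 CPM. Slc4a2, the chloride and bicarbonate exchanger that balances the acid secreted, rose by 3.07 ± 0.15 (SE) on the log2 scale from 119 and 126 CPM. No library of one treatment reached those of the other for any of these 4 genes. The smallest change of the 16 was a log2 fold change of 1.48.

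The promoters of 5 of these and later genes are shown because their genes stand at both ends of the response, Acp5, Ctsk and Oscar with rises over 100-fold and Irf8 and Bcl6 among the transcription factors that fell. Each window spans 250 bases before to 50 after the start of the gene in RefSeq on GRCm38.p6 and is read along the gene's strand. Acp5 is the minus strand of chr9:22135697-22135996, Ctsk the plus strand of chr3:95498960-95499259, Oscar the minus strand of chr7:3616108-3616407, Irf8 the plus strand of chr8:120736108-120736407 and Bcl6 the minus strand of chr16:23988803-23989102. Capitals mark matches on either strand to letters of motifs known for factors of this program, here NFAT (GGAAA), an interferon-response element (GAAANNGAA) and an E-box (CACGTG).
Acp5: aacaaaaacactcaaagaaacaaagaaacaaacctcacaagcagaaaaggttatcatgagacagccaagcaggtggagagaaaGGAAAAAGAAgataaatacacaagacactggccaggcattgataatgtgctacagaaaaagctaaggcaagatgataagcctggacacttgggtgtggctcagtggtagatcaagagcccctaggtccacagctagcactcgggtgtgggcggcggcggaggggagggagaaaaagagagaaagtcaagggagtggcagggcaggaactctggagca
Ctsk: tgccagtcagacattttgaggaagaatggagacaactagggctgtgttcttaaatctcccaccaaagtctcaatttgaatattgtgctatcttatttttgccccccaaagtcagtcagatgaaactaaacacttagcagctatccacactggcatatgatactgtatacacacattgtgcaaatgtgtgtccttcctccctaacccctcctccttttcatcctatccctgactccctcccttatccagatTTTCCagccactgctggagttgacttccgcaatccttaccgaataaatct
Oscar: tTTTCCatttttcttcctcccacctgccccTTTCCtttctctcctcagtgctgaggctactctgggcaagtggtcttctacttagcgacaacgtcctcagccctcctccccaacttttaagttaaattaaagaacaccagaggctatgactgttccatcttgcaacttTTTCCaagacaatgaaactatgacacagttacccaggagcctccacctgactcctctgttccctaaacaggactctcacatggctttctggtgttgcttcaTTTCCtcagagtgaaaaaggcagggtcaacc
Irf8: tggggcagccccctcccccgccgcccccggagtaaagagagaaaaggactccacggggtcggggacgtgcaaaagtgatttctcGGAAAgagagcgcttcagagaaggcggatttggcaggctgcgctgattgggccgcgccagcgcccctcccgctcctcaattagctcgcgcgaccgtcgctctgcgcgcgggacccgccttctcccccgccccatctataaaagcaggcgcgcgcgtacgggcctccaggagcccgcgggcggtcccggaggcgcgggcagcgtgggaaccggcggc
Bcl6: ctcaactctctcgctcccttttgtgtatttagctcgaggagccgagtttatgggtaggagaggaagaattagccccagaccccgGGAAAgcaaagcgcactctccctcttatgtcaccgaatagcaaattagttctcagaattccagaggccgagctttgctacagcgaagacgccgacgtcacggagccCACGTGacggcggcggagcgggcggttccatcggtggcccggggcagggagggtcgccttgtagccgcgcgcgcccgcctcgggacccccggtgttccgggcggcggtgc
In the Acp5 window the NFAT and interferon-response letters overlap. Oscar held 4 NFAT matches, and Ctsk, Irf8 and Bcl6 held 1 each, with 1 E-box in Bcl6. None of the 5 windows held the AP-1 letters TGANTCA, the CRE letters TGACGTCA or the PU.1 letters GAGGAAGT. Of the 8529 tested genes with a window, 59.3% held the NFAT letters, 4.62% AP-1, 3.42% CRE, 3.47% PU.1, 10.7% the E-box and 7.28% the interferon-response letters. Among the 2471 windows of genes called higher the shares were 57.2% for NFAT and 5.14% for AP-1, and among the 2454 of genes called lower 61.1% and 4.28%.

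Genes nearly silent without RANKL filled most places when rises were ranked by the log2 fold change of edgeR. For genes at 0 counts that value depends on how the model handles zeros, so their place in the ranking is not a result. By the rule for the largest changes, the 12 rises were Mst1r, Calcr, Steap4, Oscar, Mt3, Nyap2, Msln, Tspan7, Ctsk, 4833415N18Rik, Card14 and Rufy4. Calcr, the calcitonin receptor through which calcitonin restrains osteoclasts, had no count in either M-CSF library and stood at 148 and 323 CPM with RANKL, at least 2172-fold higher against a floor of 3 counts over both M-CSF libraries. Mst1r, a receptor tyrosine kinase for macrophage-stimulating protein, was at 0 and 0 CPM and then at 322 and 222 CPM, at least 2381-fold higher. Steap4, a metalloreductase that reduces iron and copper, went from 0 and 0 CPM to 133 and 161 CPM, at least 1321-fold higher. As the rule requires, every RANKL library of these genes stood clear of the M-CSF libraries. Oscar, the collagen receptor that co-stimulates osteoclasts through FcRγ, had 0.079 and 0.0 CPM in M-CSF and 490 and 442 CPM with RANKL, a count ratio of 12412 with a 95% counting interval of 2227 to 490283. Mt3, a metallothionein, went from 0.0 and 0.071 CPM to 407 and 403 CPM, a ratio of 10831 (1943 to 427833), and Rufy4, a Rab7 effector, had a ratio of 5356 (961 to 211587). These intervals cover counting error only. Nyap2, Msln, Tspan7, Card14 and the lincRNA 4833415N18Rik were at 0 in both M-CSF libraries and at least 861-, 834-, 793-, 508- and 534-fold higher with RANKL. These bounds, and that of Steap4, lie below the rises of Acp5 (1913-fold) and Mmp9 (1866-fold), which ranked lower.

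Genes of cell fusion rose beside them, though not as a whole list. Of 19 measured genes of the 21 listed, 11 were higher and 5 lower, with a median log2 fold change of 0.75 (1.22 without RANKL replicate 2 and 0.48 with limma-voom). Dcstamp and Ocstamp, the membrane proteins required for osteoclast fusion, rose from 2.77 and 3.05 to 770 and 598 CPM and from 0.316 and 0.426 to 303 and 355 CPM. Atp6v0d2, a proton pump subunit also needed for fusion, rose from 6.64 and 5.82 to 2556 and 2274 CPM (log2 fold change 8.6 ± 0.33 SE, adjusted p = 6.43e-07). The 3 genes had no overlap between treatments. Adam8, the fusion gene with the highest mean level, fell by 3.52 on the log2 scale from 2934 and 3445 CPM to 251 and 307 CPM, and Pdpn, podoplanin, was among the 12 largest falls, from 59.9 and 63.7 to 1.98 and 1.74 CPM.

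The integrins, podosomes and actin ring with which osteoclasts seal onto bone showed 17 of 33 genes higher and 9 lower (median 0.43). Itgb3, the β3 chain of the vitronectin receptor, rose from 7.35 and 8.59 CPM to 676 and 1105 CPM (log2 fold change 6.8 ± 0.48 SE, adjusted p = 3.66e-05). Src, the tyrosine kinase that organises the ruffled border, rose from 1.42 and 1.92 to 553 and 466 CPM. Myo1d, an unconventional myosin, rose from 4.98 and 3.48 to 963 and 1001 CPM. All of these left their M-CSF range in both RANKL libraries. Actb, the actin gene with the highest level of the list, moved the other way, from 7806 and 7736 to 4131 and 3517 CPM (adjusted p = 0.00132).

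Of 20 receptor and co-stimulation genes 10 were higher and 5 lower (median 0.14). RANK itself (Tnfrsf11a) rose modestly, from 174 and 164 CPM to 280 and 256 CPM, a log2 fold change of 0.67 ± 0.12 (SE, adjusted p = 0.00159). Csf1r, the receptor for M-CSF, was at 2906 and 2792 CPM in M-CSF and at 2791 and 2771 CPM with RANKL, and was not called (log2 fold change -0.04 ± 0.12 SE, adjusted p = 0.825). Tyrobp, which encodes the adaptor DAP12, rose from 652 and 774 to 1087 and 1229 CPM. Siglec15, the sialic acid receptor that signals through DAP12, went from 0.079 and 0.0 to 60.3 and 65.5 CPM, whereas Cd300lf, an inhibitory receptor of myeloid cells, fell from 39.3 and 42.4 to 1.57 and 1.82 CPM. The treatments did not overlap for the 5 genes named here, but for Csf1r the nearest libraries lay at 2792 and 2791 CPM.

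**Figure D2:**
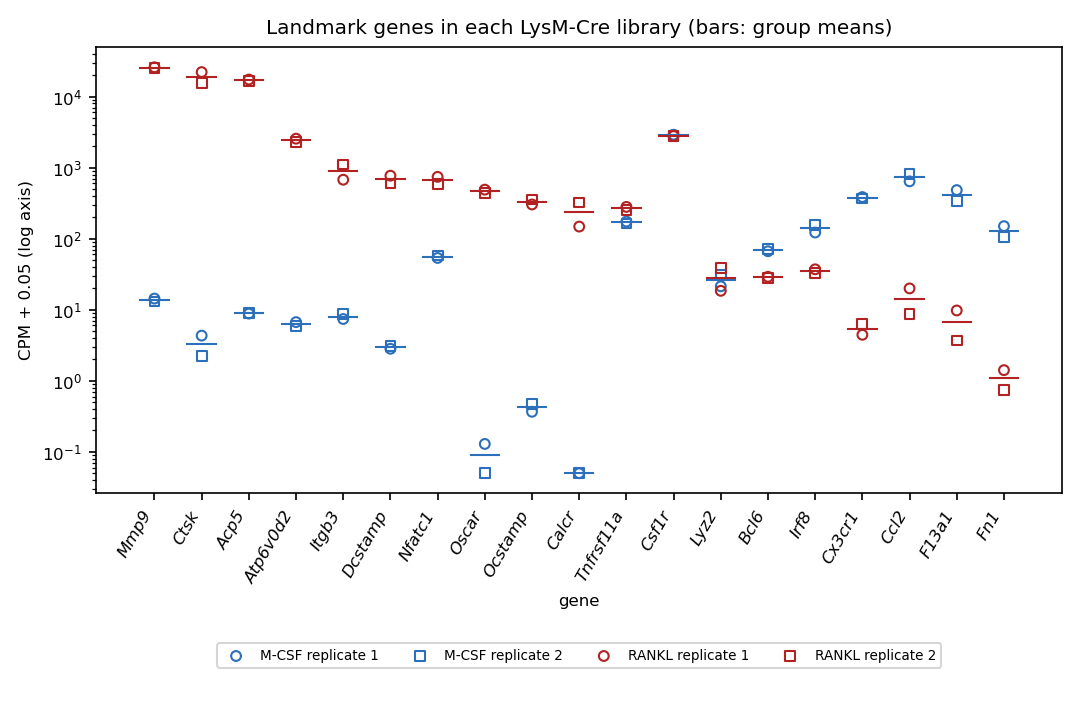
Level of 19 landmark genes in each of the 4 LysM-Cre libraries, as CPM + 0.05 on a log axis, with circles for replicate 1, squares for replicate 2 and bars for group means. Calcr was at 0 in both M-CSF libraries, Csf1r and Lyz2 were not called, and the falls of Irf8 and Bcl6 (log2 fold changes of -2.01 and -1.28) stand beside those of Cx3cr1, Ccl2, F13a1 and Fn1 (-5.68 to -6.98).

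Among transcription factors that drive osteoclast differentiation, 12 of 26 were higher and 7 lower (median 0.49, and 0.32 and 0.88 without M-CSF replicates 1 and 2). Nfatc1, the master regulator, rose from 53.5 and 58.1 CPM to 741 and 586 CPM, a log2 fold change of 3.57 ± 0.16 (SE, adjusted p = 8.35e-07). Jdp2, a dimer partner of the AP-1 family that acts on the Acp5 promoter, rose from 20.1 and 22.6 to 592 and 674 CPM (4.89 ± 0.16 SE). Fosl2, the AP-1 subunit Fra-2 and the most abundant of the list, rose from 62.4 and 58.5 to 811 and 916 CPM (3.84 ± 0.14 SE). The replicates of each treatment stayed close together and the treatments apart. Of the genes named here after their values were seen, Prdm1, the repressor Blimp1 that silences brakes of the program, rose from 7.59 and 11.5 to 193 and 197 CPM, Fosl1 fell from 4.98 and 9.23 to 0.209 and 0.0868 CPM, and Fos was at 77.1 and 252 CPM in M-CSF and at 199 and 130 CPM with RANKL and was not called.

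The brakes fell more often than they rose, with 12 of 21 measured genes lower, where 28.6% of all genes were, and 5 higher (median -1.22, and -0.79 without M-CSF replicate 2). The count of higher brakes was 2 without M-CSF replicate 2 or RANKL replicate 1 and 3 without RANKL replicate 2. Irf8, which restrains NFATc1, fell from 122 and 157 CPM to 37.0 and 32.5 CPM (log2 fold change -2.01 ± 0.15 SE, adjusted p = 1.18e-05). Bcl6, a repressor of Nfatc1, fell from 66.5 and 71.5 to 29.0 and 28.0 CPM (-1.28 ± 0.18 SE, adjusted p = 0.000309). Rbpj, the Notch effector that limits osteoclast formation in inflammation, fell from 309 and 314 to 126 and 121 CPM. In these 3 genes both RANKL libraries lay below both M-CSF libraries. Tsc22d3, the glucocorticoid-induced leucine zipper gene, was among the 5 that rose, from 39.9 and 28.7 to 129 and 123 CPM.

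In RANK, NF-κB and calcium signalling 18 of 32 measured genes were higher and 4 lower (median 0.62). Traf1, an adaptor of TNF receptors, rose from 4.58 and 5.25 to 161 and 149 CPM (log2 fold change 4.98 ± 0.19 SE), and Tnfaip2, a TNF-induced gene and the most abundant of the list, from 107 and 127 to 823 and 733 CPM. Some genes were named after their values were seen. Of these the kinase genes Ikbkb, Chuk and Map3k7 were not called, at log2 fold changes of -0.17, -0.2 and -0.1. The NF-κB subunits Nfkb2 and Relb rose by 2.33 and 2.15 on the log2 scale, and Nfkb1 and Rela were not called at 0.03 and 0.32.

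Transcripts of the respiratory chain moved in a single direction. Every one of the 37 measured genes of the respiratory chain and ATP synthase was higher, with log2 fold changes from 0.54 to 2.29 and a median of 1.6. Uqcrc2, a core subunit of complex III, rose from 118 and 126 CPM to 617 and 573 CPM (2.29 ± 0.11 SE, adjusted p = 1.15e-06). Cyc1, which encodes cytochrome c1, rose from 94.6 and 117 to 498 and 490 CPM, and Atp5b, the β subunit of ATP synthase and the most abundant of the list, from 809 and 893 to 2972 and 2693 CPM. The treatments were apart for each. In the tricarboxylic acid cycle and fatty acid oxidation 25 of 28 genes were higher (median 1.42), and Cpt1a, the carnitine palmitoyltransferase of fatty acid import, named after its values were seen, was lower by a log2 fold change of -0.58, a call lost without either M-CSF library or RANKL replicate 1. Mdh1, malate dehydrogenase, rose from 177 and 179 to 1096 and 1072 CPM, and Pdhb, a subunit of pyruvate dehydrogenase, from 57.8 and 59.7 to 348 and 314 CPM.

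The genes behind mitochondrial biogenesis and iron were mixed, with 7 of 18 measured genes higher and 4 lower (median 0.22). Ppargc1b, the coactivator PGC-1β that osteoclasts use to build mitochondria, rose from 1.98 and 1.49 to 42.9 and 55.2 CPM (log2 fold change 4.82 ± 0.28 SE). Hmox1, the heme oxygenase that frees iron, fell from 1148 and 1527 to 138 and 146 CPM, Slc25a37, the mitochondrial iron importer, fell from 82.0 and 75.3 to 27.2 and 22.4 CPM, and Ftl1, the ferritin light chain, fell from 9822 and 13207 to 5996 and 7288 CPM. Steap4 of the same list is described above, and Tfrc, the transferrin receptor, named after its values were seen, rose from 393 and 324 to 4711 and 2260 CPM. Glycolysis and hypoxia genes were split, with 6 of 23 higher (3 without M-CSF replicate 1) and 6 lower (median -0.04). Both glycolysis counts are near the shares of all genes. Pdk1, the kinase that blocks pyruvate dehydrogenase, rose from 62.3 and 59.7 to 236 and 323 CPM, while Hk3, a hexokinase of myeloid cells, fell from 533 and 532 to 114 and 123 CPM, and Pkm, pyruvate kinase, from 2538 and 2971 to 1571 and 1610 CPM.

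Transcripts of the proton pump were mostly higher. Of 19 measured V-ATPase genes 16 were higher and 1 lower (median 2.03). Atp6v1b2, the most abundant, rose from 407 and 428 to 3524 and 4151 CPM, and Atp6v1d and Atp6v1e1, further subunits of the cytosolic domain, by 3.04 ± 0.12 and 2.55 ± 0.12 (SE) on the log2 scale. The subunit that fell was Atp6v0a1, from 254 and 259 to 75.1 and 107 CPM, an isoform of the membrane domain whose osteoclast counterpart Tcirg1 rose from 379 and 449 to 2707 and 2205 CPM, both named after their values were seen. Lysosomal hydrolases and membrane proteins were higher in 17 of 30 cases and lower in 7 (median 0.52). The smallest p-values were those of Smpd1, acid sphingomyelinase, from 36.0 and 36.1 to 224 and 249 CPM, Hexa, a hexosaminidase, from 674 and 737 to 2837 and 2620 CPM, and Npc2, a sterol carrier, from 761 and 740 to 2371 and 2381 CPM. Cathepsins, metalloproteinases and their inhibitors leaned the other way, with 9 of 29 higher and 16 lower (median -0.85). Plau, urokinase, fell from 1289 and 1452 to 57.3 and 48.3 CPM, and Ctsb, the leading cathepsin of the M-CSF libraries, fell from 9936 and 10645 to 7523 and 6727 CPM (adjusted p = 0.015, a call lost without M-CSF replicate 2 or RANKL replicate 2).

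**Figure D3:**
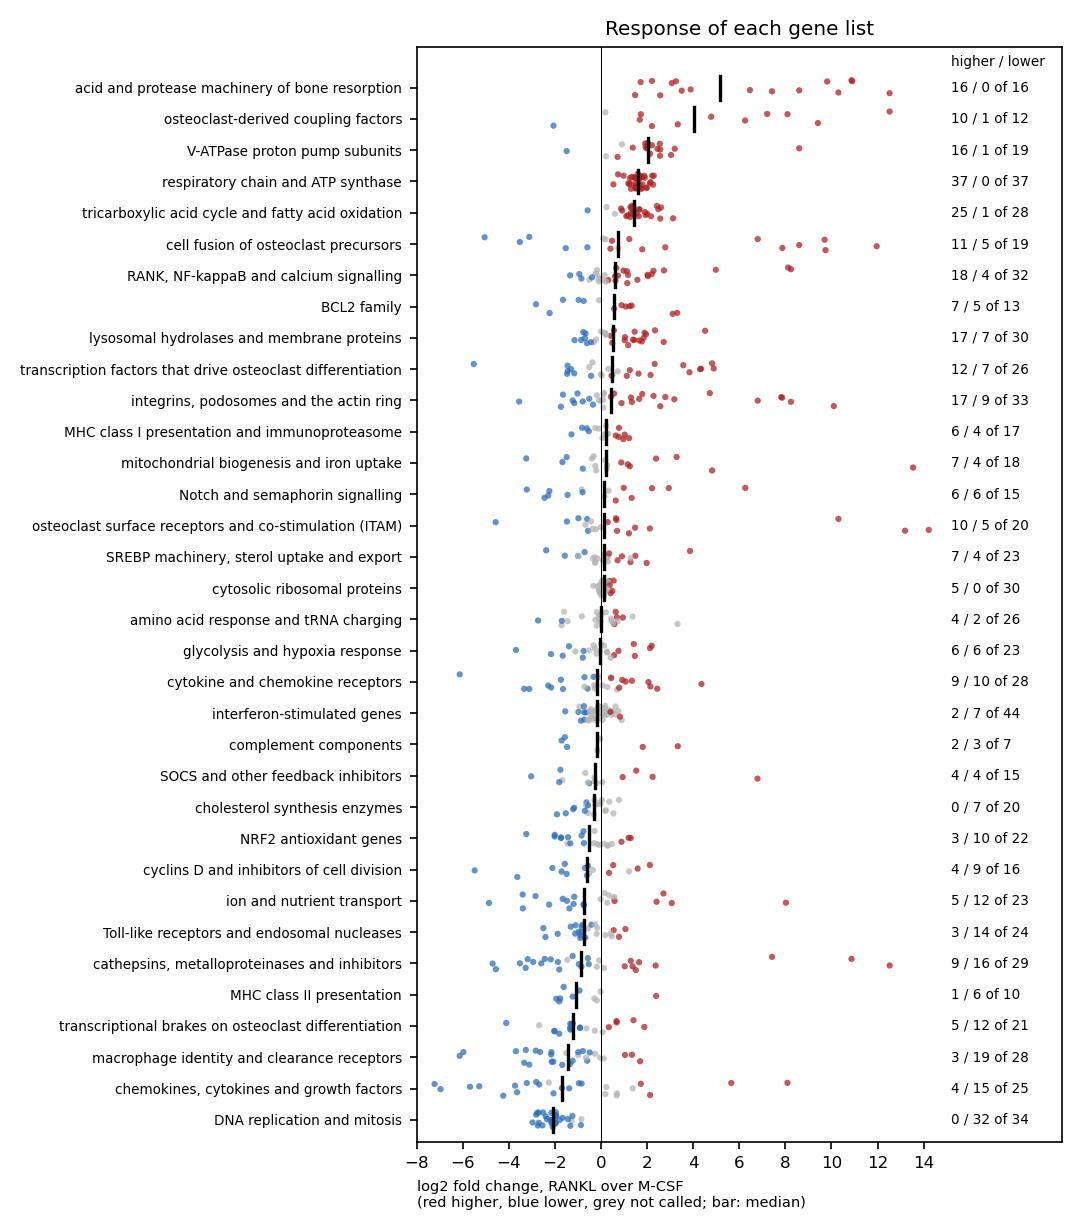
Log2 fold change of RANKL over M-CSF for each measured gene of the 34 lists, ordered by the list median (black bar), with genes called higher in red, lower in blue and not called in grey, and the counts of higher and lower genes at the right. Bone resorption stands at the top with a median of 5.17 and DNA replication and mitosis at the bottom with a median of -2.08.

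Cell division genes fell together. Of 34 genes of DNA replication and mitosis 32 were lower and none was higher, with log2 fold changes from -2.97 to -0.85 and a median of -2.08. Pcna, the sliding clamp of DNA polymerase, fell from 480 and 537 CPM to 78.4 and 95.9 CPM (-2.54 ± 0.14 SE, adjusted p = 2.08e-06). Gins2 and Cdc45, parts of the replicative helicase, fell from 49.1 and 54.3 to 7.21 and 10.9 CPM and from 37.3 and 41.7 to 5.33 and 6.43 CPM. Mki67, the most abundant of the list, fell from 747 and 629 to 106 and 188 CPM (-2.22 ± 0.39 SE, adjusted p = 0.00267), the RANKL libraries differing from each other more than for Pcna. No RANKL library reached an M-CSF library in any of the 4 genes. Ccnd1 and Ccnd2, the D cyclins induced by M-CSF, fell from 1038 and 1057 to 77.9 and 91.3 CPM and from 30.2 and 26.0 to 0.731 and 0.521 CPM. They belong to a list of D cyclins and inhibitors of division in which 9 of 16 measured genes were lower and 4 higher (2 without either RANKL library, median -0.59), and Rbl1, a pocket protein, also fell, from 118 and 102 to 23.3 and 27.4 CPM.

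Of 13 measured BCL2 family genes 7 were higher and 5 lower (median 0.57), and members of both the protective and the killing branch moved each way. Bid, a BH3-only activator of death named after its values were seen, fell from 59.3 and 66.5 to 17.8 and 22.2 CPM. Bcl2l1, which encodes the protective BCL-XL, fell from 171 and 205 to 23.4 and 29.9 CPM (log2 fold change -2.82 ± 0.15 SE), while Mcl1, also protective, rose from 306 and 316 to 771 and 789 CPM (1.33 ± 0.11 SE). Bmf, also of the BH3-only kind, rose from 5.06 and 5.18 to 41.5 and 47.1 CPM (3.11 ± 0.15 SE).

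Macrophage genes were the counterpart of the osteoclast genes. Of 28 measured genes of macrophage identity and clearance 19 were lower and 3 higher (median -1.42). Cx3cr1, the fractalkine receptor, fell from 385 and 367 CPM to 4.39 and 6.25 CPM (log2 fold change -6.13 ± 0.26 SE, adjusted p = 8.07e-07). C5ar1 and C3ar1, the receptors for complement fragments C5a and C3a, fell from 1179 and 1312 to 175 and 176 CPM and from 1125 and 930 to 222 and 241 CPM. Stab1, a scavenger receptor and the most abundant of the list, fell from 3786 and 3302 to 975 and 718 CPM. The treatments did not overlap for these genes. Of the 12 largest falls, Slco2b1, an organic anion carrier, went from 105 and 67.7 to 0.94 and 0.434 CPM, Fn1, fibronectin, from 150 and 106 to 1.36 and 0.695 CPM, Trem1, a receptor that amplifies inflammation and is also carried by neutrophils, from 48.3 and 47.6 to 0.94 and 0.26 CPM, and F13a1, coagulation factor XIII A, from 483 and 339 to 9.71 and 3.65 CPM. Ch25h, cholesterol 25-hydroxylase, fell from 83.8 and 70.3 to 0.94 and 1.39 CPM, Nes, nestin, from 33.6 and 43.8 to 0.313 and 0.781 CPM, and Nanos1, an RNA-binding protein, from 54.8 and 54.7 to 1.46 and 1.39 CPM. The neutrophil markers given above fell with them, and their part in these falls was not tested.

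Lyz2, the macrophage gene whose promoter drives Cre in these mice, stood at 21.3 and 30.8 CPM in M-CSF and at 18.4 and 38.3 CPM with RANKL. The treatments overlapped and the gene was not called (log2 fold change 0.13 ± 0.4 SE, adjusted p = 0.809). In the separately normalised table of C57BL6 wild-type cells it was at 27558 and 20103 CPM in M-CSF and at 3859 and 3764 CPM with RANKL. Levels across the tables were not tested.

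Chemokines, cytokines and growth factors were lower in 15 of 25 measured cases and higher in 4 (median -1.69). Ccl2 and Ccl7, which attract monocytes through CCR2, fell from 641 and 815 to 19.9 and 8.68 CPM (log2 fold change -5.68 ± 0.48 SE, adjusted p = 0.000102) and from 323 and 365 to 4.49 and 1.22 CPM. Ccl12, Ccl4 and Pf4, further chemokines, fell by 5.28, 4.24 and 3.73 on the log2 scale. Spp1, osteopontin, which has the highest level of the list, fell from 2964 and 3544 to 1970 and 1675 CPM (-0.84 ± 0.17 SE, adjusted p = 0.00306). Toll-like receptors and their partners were lower in 14 of 24 cases and higher in 3 (median -0.74, and -0.49 without M-CSF replicate 1), with Tlr13, a sensor of bacterial ribosomal RNA, from 636 and 526 to 104 and 114 CPM, Nlrp3, the inflammasome sensor, from 116 and 107 to 24.0 and 15.5 CPM, and Pld4, an endosomal exonuclease, from 372 and 360 to 165 and 176 CPM. In MHC class II presentation 6 of 10 genes were lower and 1 higher (median -1.08). Cd74, the invariant chain, fell from 188 and 220 to 108 and 107 CPM, H2-DMa fell from 20.1 and 31.7 to 7.21 and 7.55 CPM, and Ifi30, a lysosomal thiol reductase, was the gene that rose, from 260 and 270 to 1417 and 1357 CPM. MHC class I genes were mixed, with 6 of 17 higher and 4 lower (2 without RANKL replicate 1, median 0.22), H2-D1 rising from 1026 and 1060 to 2161 and 1918 CPM. Complement components were split, with the C1q chains C1qb (1834 and 1814 to 583 and 535 CPM) and C1qc (1238 and 1159 to 483 and 382 CPM) lower and C3, the central component, higher, from 19.7 and 16.3 to 179 and 181 CPM. In all, 3 of 7 measured complement genes were lower and 2 higher (median -0.16).

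Of 12 measured genes of the 19 listed as factors by which osteoclasts signal to bone-forming cells, 10 were higher and 1 lower (median 4.05), Ctsk, described above, among the higher ones. Efnb2, the ephrin through which osteoclasts contact osteoblasts, rose from 0.395 and 0.213 to 24.6 and 22.8 CPM (log2 fold change 6.25 ± 0.25 SE), whereas Igf1, a growth factor for osteoblasts, fell from 549 and 523 to 121 and 136 CPM (-2.06 ± 0.14 SE). Sema4d, a semaphorin that restrains osteoblasts, rose from 210 and 235 to 1147 and 913 CPM. In Notch and semaphorin signalling as a whole 6 of 15 measured genes were higher and 6 lower (median 0.15), with Sema7a rising from 0.474 and 0.426 to 27.2 and 43.2 CPM and Plxnd1, a semaphorin receptor, from 129 and 176 to 1180 and 1154 CPM. Cytokine and chemokine receptors were also mixed, with 9 of 28 higher and 10 lower (median -0.16), not far from the 29.0% and 28.6% of all genes. Tgfbr1, the TGF-β type I receptor, rose from 163 and 162 to 716 and 636 CPM and Il4ra fell from 230 and 210 to 74.9 and 65.6 CPM.

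Of 20 enzymes of cholesterol synthesis none was called higher and 7 were lower (median -0.29). The lower count was 4 without M-CSF replicate 2 or RANKL replicate 2, when 1 and 2 enzymes were higher, and 2 were higher with DESeq2 and 1 with the likelihood ratio test of edgeR. The median was -0.57 and -0.11 without RANKL replicates 1 and 2. Srebf2, which encodes SREBP2, the activator of these enzymes, was at 233 and 267 CPM in M-CSF and at 282 and 251 CPM with RANKL and was not called (log2 fold change 0.09 ± 0.17 SE, adjusted p = 0.662). Hmgcs1, an enzyme early in the pathway, was at 161 and 116 CPM and then at 312 and 164 CPM (0.78 ± 0.3 SE, adjusted p = 0.0583 in edgeR's quasi-likelihood test). It was called higher with DESeq2 (adjusted p = 0.00609) and with edgeR's likelihood ratio test (adjusted p = 0.0248). With the replicate number as a block it was called in edgeR's quasi-likelihood test (adjusted p = 0.0416). It was also called without RANKL replicate 2 (log2 fold change 1.15). RANKL replicate 1 held the higher Hmgcs1 level by far, and the treatments overlapped for Srebf2. Sqle, squalene epoxidase, fell from 139 and 178 to 80.2 and 56.6 CPM (-1.21 ± 0.21 SE, adjusted p = 0.00121). Among the SREBP machinery and sterol transport genes 7 of 23 were higher and 4 lower (median 0.12), the higher count being 4 without either M-CSF library. The 7 higher genes are near the share of all genes. Abcg1, a cholesterol exporter, rose from 9.56 and 14.9 to 173 and 184 CPM, and Nr1h3, the sterol-sensing receptor LXRα that induces it, from 10.8 and 9.09 to 39.0 and 39.3 CPM, while Elovl6, a fatty acid elongase, fell from 27.4 and 27.7 to 5.85 and 4.78 CPM.

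Interferon-stimulated genes gave the least stable answer, and it turned on the M-CSF libraries. Over both M-CSF libraries 2 of 44 measured genes were higher and 7 lower (median -0.16). Without M-CSF replicate 1 the counts were 15 higher and 4 lower (median 0.52), and without M-CSF replicate 2 they were 1 higher and 20 lower (median -0.61). Without RANKL replicate 1 they were 1 and 4. Summed over the 44 genes the level was 3945 and 2356 CPM in M-CSF and 3015 and 3051 CPM with RANKL, so that both RANKL libraries lay between the M-CSF libraries. Irf7, the factor that amplifies interferon production, was at 115 and 44.9 CPM in M-CSF and at 144 and 125 CPM with RANKL (log2 fold change 0.75 ± 0.41 SE, adjusted p = 0.166), but was called higher with DESeq2 (0.75, adjusted p = 0.0364) and without M-CSF replicate 1 (1.58, adjusted p = 0.00163). The called falls included Sp110, from 65.3 and 60 to 22.1 and 20.6 CPM, Bst2, tetherin, from 209 and 155 to 90.7 and 94.1 CPM, and Ifi35, from 45.9 and 41.5 to 27.5 and 28.2 CPM, in which the M-CSF libraries lay closer together. Ly6e rose from 634 and 492 to 728 and 768 CPM (adjusted p = 0.0394), a call lost in a model of only the 4 LysM-Cre libraries (adjusted p = 0.0645) and without M-CSF replicate 2 or either RANKL library. Ly6a, at 88.2 and 56.9 and then at 57.4 and 47.2 CPM, was not called (adjusted p = 0.136). With the replicate number as a block it was called lower in edgeR's quasi-likelihood test (log2 fold change -0.45, adjusted p = 0.0357). It was also called lower without M-CSF replicate 2 (log2 fold change -0.75).

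Immediate-early genes, chosen after their values were seen, differed between replicates in the opposite sense. Egr1 was at 3.0 and 175 CPM in the M-CSF libraries and at 24.1 and 4.25 CPM with RANKL, Fos at 77.1 and 252 and then at 199 and 130 CPM, and Ier2 at 21.5 and 79.7 and then at 38.5 and 25.1 CPM. M-CSF replicate 2 was the highest of the 4 libraries for each, and none was called. The SREBP2dM libraries of the same numbers showed the same order for Egr1, with 4.35 and 193 CPM in M-CSF and 34.1 and 4.47 CPM with RANKL.

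**Figure D4:**
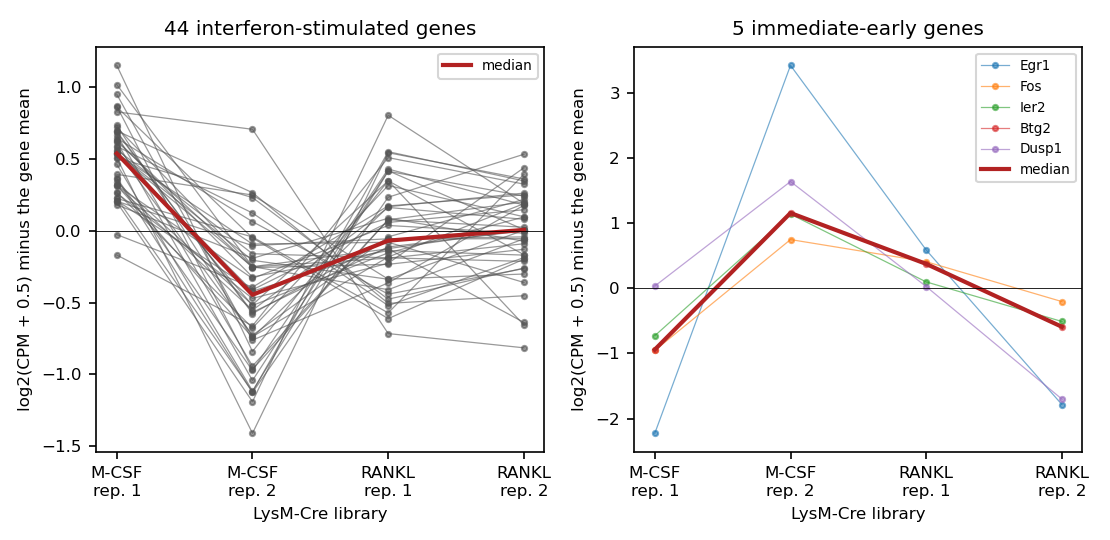
Level of 44 interferon-stimulated genes (left) and 5 immediate-early genes (right) in each LysM-Cre library, as log2(CPM + 0.5) minus the mean of the gene over the 4 libraries, with the median in red. M-CSF replicate 1 is the highest library for the median interferon-stimulated gene and M-CSF replicate 2 for each immediate-early gene.

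Other lists moved less or were mixed, and the SOCS counts lay near the shares of all genes. Of 30 cytosolic ribosomal proteins 5 were higher and none lower (median 0.12), all 5 by at most 0.55 on the log2 scale. Without M-CSF replicate 1 none was higher and 1 was lower, and without RANKL replicate 1 or 2 the count of higher genes was 2 or 1. Of 26 genes of the amino acid response and tRNA charging 4 were higher and 2 lower (median -0.02), Psat1, an enzyme of serine synthesis, falling from 116 and 121 to 15.6 and 20 CPM, and the count of higher genes was 0, 2 and 1 without M-CSF replicate 1, M-CSF replicate 2 and RANKL replicate 1. NRF2 antioxidant genes were lower in 10 of 22 measured cases (6 without M-CSF replicate 2) and higher in 3 (median -0.52), with Prdx1, a peroxiredoxin, from 2033 and 2637 to 803 and 931 CPM and Sod2, the mitochondrial superoxide dismutase, rising from 81.2 and 86.6 to 206 and 206 CPM. SOCS and other feedback inhibitors were split 4 higher and 4 lower of 15 (median -0.28), each count falling to 1 or 2 without M-CSF replicate 2 or RANKL replicate 1, and the higher to 2 without M-CSF replicate 1, Spry1 rising from 0.316 and 0.213 to 26.9 and 33.9 CPM and Dusp6 falling from 212 and 205 to 59.7 and 63.1 CPM, both inhibitors of ERK signalling. Ion and nutrient transporters were lower in 12 of 23 measured cases and higher in 5 (median -0.74, and -0.49 without RANKL replicate 2), Slc9b2, a sodium and proton exchanger of osteoclasts, rising from 3.32 and 4.68 to 1036 and 1053 CPM and Slc7a8, an amino acid carrier, falling from 1150 and 1151 to 102 and 115 CPM.

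Loss of Srebp2 did not change the RANKL response detectably at this depth and number of libraries. In the same model the difference between the responses of LysM-Cre and SREBP2dM cells was called for 0 genes in either direction (0.0%), with 119 genes at an unadjusted p under 0.05 in edgeR and no call by DESeq2, which had 58 such genes. SREBP2dM cells on their own had 3076 genes higher and 2976 lower, and 5523 genes were called with the same sign in both genotypes, which is 89.0% of the LysM-Cre calls and 91.3% of the SREBP2dM calls. A count of 0 does not show that the responses were alike. The 119 genes are fewer than an unadjusted p of 0.05 gives by chance over 10764 genes, so the test was conservative here. The model held no replicate block, although replicate differences correlated with r = 0.68 between the RANKL groups of both genotypes. With such a block the count was also 0, with 155 genes at an unadjusted p under 0.05 in edgeR. For Acp5 the difference was 0.01 on the log2 scale (unadjusted p = 0.955, adjusted p = 1.0) and for Nfatc1 0.13 on the log2 scale (unadjusted p = 0.543, adjusted p = 1.0). Other landmark genes had larger differences that were not called. In edgeR's quasi-likelihood test these were 1.01 for Sqle (unadjusted p = 0.0141), -0.75 for Mmp9 (unadjusted p = 0.0112) and -0.83 for Ctsk (unadjusted p = 0.23).

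The response could also be set beside that of C57BL6 cells, labelled wild type, over 10598 genes kept in both tables. The table, the genotype, the age of the mice and any batch between the experiments cannot be told apart here. In 1 model over all 16 libraries, the 4 SREBP2dM and 4 IRF7-deficient ones included, 186 genes responded more positively in LysM-Cre cells (1.76%) and 181 more negatively (1.71%). That total of 367 was 674 with DESeq2 (286 and 388) and 699 with edgeR's likelihood ratio test (307 and 392). It was 682 with the replicate number as a block (314 and 368) and 240 with only the 8 control libraries. It fell to 55 without C57BL6 RANKL replicate 2, to 58 without C57BL6 M-CSF replicate 1, to 59 without LysM-Cre RANKL replicate 1, to 70 without LysM-Cre M-CSF replicate 2, and to 122 and 128 without LysM-Cre M-CSF replicate 1 and C57BL6 M-CSF replicate 2. Without C57BL6 RANKL replicate 1 the total rose, and without LysM-Cre RANKL replicate 2 it fell less. LysM-Cre cells had 6320 called genes in the model of all 16 libraries and C57BL6 cells 5377. Of these, 4542 were called in both with the same sign (71.9% and 84.5%) and 15 with opposite signs.

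Of the 36 genes reported under the naming rules with a called difference, 7 stayed called whichever of the 8 control libraries was left out. They were Ifitm1, Gja1 and Psat1, with the lower response in LysM-Cre cells, and C1qb, C1qc, Irf8 and Igf1, with the higher response. Ifitm1, an interferon-induced membrane protein, fell in LysM-Cre cells from 15.0 and 23.6 to 4.39 and 4.6 CPM and rose in C57BL6 cells from 0.795 and 0.738 to 3.97 and 5.14 CPM (difference -4.67 on the log2 scale, adjusted p = 0.00092, leave-one-out range -4.94 to -4.31). In these separately normalised tables the Ifitm1 levels lay apart in M-CSF and close with RANKL, which was not tested. Gja1, the gap junction protein connexin 43, fell from 21.3 and 15.3 to 2.82 and 2.69 CPM in LysM-Cre cells and was at 22.6 and 16.6 and then at 23.1 and 25.8 CPM in C57BL6 cells (difference -3.05, adjusted p = 0.00517). C1qb went from 2224 and 2493 to 171 and 157 CPM in C57BL6 cells, against 1834 and 1814 to 583 and 535 CPM in LysM-Cre cells (difference 2.14, adjusted p = 7.42e-05). Irf8 went from 160 and 184 to 11.5 and 11.7 CPM in C57BL6 cells, so that its fall in LysM-Cre cells was smaller by 1.89 on the log2 scale (adjusted p = 0.00392). In C57BL6 cells the treatments were apart for C1qb and Irf8 as well, and the fall was present in both controls.

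Cell division genes leaned lower in LysM-Cre cells, but the number of calls depended on which libraries were left in the model. The list median was -2.08 in LysM-Cre and -0.36 in C57BL6 cells, and all 34 differences lay below 0, also without any single control library (median differences of -1.38 to -2.12). Called differences numbered 11 of 34, all lower in LysM-Cre cells. That count became 20 without LysM-Cre RANKL replicate 2 or C57BL6 RANKL replicate 1, 0 without LysM-Cre M-CSF replicate 2, LysM-Cre RANKL replicate 1, C57BL6 M-CSF replicate 1 or C57BL6 RANKL replicate 2, 1 without LysM-Cre M-CSF replicate 1 and 3 without C57BL6 M-CSF replicate 2. Mki67, at 747 and 629 and then 106 and 188 CPM in LysM-Cre cells, was at 354 and 389 CPM in M-CSF and at 251 and 362 CPM with RANKL in C57BL6 cells (difference -1.94, adjusted p = 0.044, called in 2 of 8 omissions). In M-CSF the LysM-Cre level was the higher one, in tables that were normalised separately.

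Macrophage and complement genes leaned the other way. In the macrophage list 10 of 28 genes had a higher and 1 a lower response than in C57BL6 cells (medians -1.42 and -2.88). In the complement list 5 of 7 were higher, against 1.76% higher and 1.71% lower of all genes. These lists were not alone in this. Toll-like receptors had 5 of 24 and brakes 4 of 20 higher, with 0 lower, while D cyclins and inhibitors of division had 0 of 16 higher and 2 lower. The macrophage count of higher genes ran from 1, without C57BL6 M-CSF replicate 1, to 9, and was 2 without LysM-Cre M-CSF replicate 2 or C57BL6 RANKL replicate 2, 3 without LysM-Cre RANKL replicate 1 and 5 without LysM-Cre M-CSF replicate 1. The complement count was 2 or 3 without any of the same libraries or C57BL6 M-CSF replicate 2. Csf1r, not called in LysM-Cre cells, went from 3168 and 2647 to 1769 and 1649 CPM in C57BL6 cells (difference 0.73, adjusted p = 0.0457, called in 0 of 8 omissions). Apoe, the apolipoprotein secreted by macrophages, was at 877 and 891 and then at 915 and 463 CPM, uncalled, against 3011 and 3079 and then 334 and 176 CPM in C57BL6 cells (difference 3.22, adjusted p = 0.0343, called in 2 of 8). Resorption genes had 0 of 16 called differences (medians 5.18 and 4.08).

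**Figure D5:**
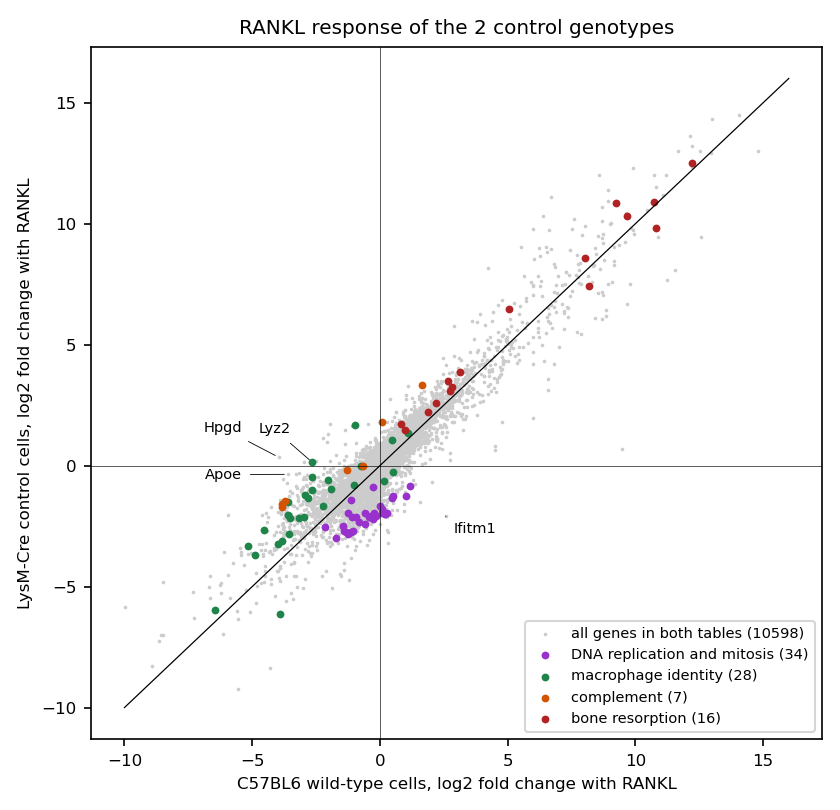
Log2 fold change with RANKL in C57BL6 wild-type cells (x axis) and in LysM-Cre control cells (y axis) for 10598 genes, with 4 lists in colour and the line of equal response. Resorption genes lie around or above the line (median difference 0.47), all 34 genes of DNA replication and mitosis lie below it and all but 3 of 28 macrophage genes lie above it, in cells from separate tables.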

How the data were processed

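RNA was prepared with RNeasy columns and TruSeq Stranded mRNA kits, and paired reads were sequenced. Per the labels, fastp, bcl2fastq (1.8.4), STAR (2.7.3a) and edgeR were used on mm10, and the authors deposited whole-number counts per gene with Ensembl identifiers, before and after a filter on low expression. How reads were counted (tool, strandedness, annotation version) is not given in the sources used here, so reads of overlapping genes, of antisense partners and of near-identical copies cannot be assigned with certainty. The log2 CPM tables that accompany the counts were not used, and 0 columns were left without a sample.

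The counts as deposited were scaled by TMM and tested with the quasi-likelihood test of edgeR (4.0.16, robust dispersion) in R (4.3.3). The 8 libraries of the SREBP2 table entered as 4 groups of 2, with 4 residual degrees of freedom and a common biological coefficient of variation of 0.15. p-values were Benjamini-Hochberg adjusted over all 10764 genes, and an adjusted p below 0.05 was a call. The difference to SREBP2dM was an interaction in this model, and that to C57BL6 an interaction in a model of all 16 libraries over the 10598 genes of both tables. The code of the model was run on simulated counts with known changes in few, well expressed genes and independent replicates. That run does not show the error rate in these data, where most genes were called. CPM are TMM-scaled, and lengths for CPM per kb are exonic lengths of GENCODE M21. A fold against a group at 0 used a floor of 3 counts over the group, and intervals of count ratios are exact at 95%. With 2 libraries a group, an exact permutation test cannot go below p = 0.333 and was not used for single genes.

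Named genes were the 12 largest called rises and falls with a mean of at least 20 CPM in the higher group and no overlap of the libraries, the 3 members of each of 34 lists with the smallest p and its most abundant member, fixed landmark genes, the 10 genes with the most counts per treatment, and the 5 largest called differences per direction. A few of these genes are not reported here, and counts of list members include them. The lists and landmarks were chosen with earlier results of these data known. Alternatives were DESeq2 (1.42.0) and its size factors, edgeR's likelihood ratio test, limma-voom (3.58.1), other filters, other libraries in the model, a 1.5-fold threshold, a replicate block, and the omission of 1 library at a time.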

Additional observations from a re-analysis of the deposited data

Results flagged for a closer look

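The 36 named genes below had a response to RANKL that differed between LysM-Cre and C57BL6 control cells by a test of the difference itself, in the model of all 16 libraries. Table and genotype cannot be told apart, so no cause can be assigned. Differences are log2 fold changes in LysM-Cre minus those in C57BL6 cells. All 36 kept their sign whichever of the 8 control libraries was left out. The difference of Ifitm1 was -4.67, of Gja1 -3.05, of Psat1 -2.04, of Irf8 1.89, of C1qb 2.14, of C1qc 2.26 and of Igf1 2.58, and these 7 stayed called in all 8 omissions. Psat1 went from 94.1 and 93.1 to 50.7 and 65.4 CPM in C57BL6 cells, and Igf1 from 753 and 709 to 31.8 and 27.2 CPM.

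The other 29 lost the call in at least 3 of the 8 omissions. Lower responses in LysM-Cre cells were those of Spint1 at -3.05, Pif1 at -2.81, Socs3 at -2.72, Cx3cr1 at -2.21, Mki67 at -1.94, Cdc45 at -1.62, Traf1 at -1.37, Rbl1 at -0.97 and Ccnd1 at -0.89. Higher responses up to 1 were those of C5ar1 at 0.72, Csf1r at 0.73, Npc2 at 0.76, Tmsb4x at 0.81, Tyrobp at 0.85, Pld4 at 0.87, Ncf1 at 0.88 and Bst2 at 0.96. C5ar1 and Csf1r were called in none of the omissions. Above that stood C3ar1 at 1.02, H2-D1 at 1.11, Ctsd at 1.12, Tlr13 at 1.12, Hmox1 at 1.51, C3 at 1.68, Lyz2 at 2.78, Plxdc2 at 2.93, Apoe at 3.22, Ednrb at 3.36, Ms4a4a at 3.68 and Hpgd at 4.29. Hpgd, which degrades prostaglandins, was at 23.6 and 17.8 and then at 36.9 and 15.8 CPM in LysM-Cre cells and at 46.0 and 28.8 and then at 1.92 and 2.76 CPM in C57BL6 cells, and was called in 4 of 8 omissions.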

How the results depend on the processing

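The RANKL effect in LysM-Cre cells was called for 6208 genes, for 5619 (DESeq2) to 7084 (no filter on low counts) under other tests, filters and model libraries, for 3431 (1811 higher, 1620 lower) against a 1.5-fold change, and for 4926 to 5233 without 1 LysM-Cre library, when the lone sample is assumed to vary like the other groups. The difference to SREBP2dM had 0 calls except with no filter on low counts, when it had 2 (1 in each direction), and had 0 in every omission of a library. The difference to C57BL6 had 367 calls, against 674 (286 higher, 388 lower) with DESeq2, 699 (307 and 392) with the likelihood ratio test, 240 (125 and 115) with only the 8 control libraries, and 55 to 448 without 1 library. The labels do not say what a shared replicate number marks. With the replicate block the counts were 6331, 0 and 682 (314 higher, 368 lower), Ly6a (-0.45, adjusted p = 0.0357) and Hmgcs1 (0.76, adjusted p = 0.0416) were called, and 1 cholesterol enzyme was higher. Differences between replicates 1 and 2 correlated over genes between groups with r = 0.107 to 0.68 in the SREBP2 table (0.327 between the LysM-Cre groups) and 0.057 to 0.721 in the other. Of 161 named genes 147 were called, and all 147 kept their direction in 10 alternatives. The sign turned, or the fold change reached 0, only for uncalled genes, all on leaving out a LysM-Cre library. Over these 4 omissions the log2 fold change was -0.94 to 0.03 for Apoe (0.03 without RANKL replicate 2), -0.39 to 0.81 for Hpgd (-0.39 without RANKL replicate 1), -0.52 to 0.56 for Lyz2 (-0.12 without M-CSF replicate 1, -0.52 without RANKL replicate 2) and 0.0 to 0.19 for Srebf2 (0.0 without M-CSF replicate 1). Of 680 list counts 637 stayed within 1.5 times. The causes were not tested. With 2 libraries a group and 1 count worth up to 0.104 CPM, changes of genes near that level and modest differences between responses were not detectable.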

Other observations

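Noncoding genes also responded. Of 90 tested lincRNAs 37 were higher (41.1%) and 21 lower (23.3%), against 28.9% and 29.0% of 10410 protein-coding genes, and of 50 antisense genes 21 were higher and 11 lower. The counting strand is not given, so an antisense gene and its partner may share reads. Of 69 processed pseudogenes 6 were higher and 5 lower.

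Among the libraries counted with SREBP2dM, 14 genes differed by over 2 on the log2 scale between replicates 1 and 2 with the same sign in all 4 groups, and none did so in the other table. Of these 14, 9 are processed pseudogenes and 4 are annotated as protein-coding. In the order LysM-Cre M-CSF, LysM-Cre RANKL, SREBP2dM M-CSF and SREBP2dM RANKL, the log2 difference of replicate 1 minus replicate 2 was 8.02, 4.1, 7.26 and 3.91 for Ifi202b, an interferon-inducible gene, 2.9, 4.64, 3.21 and 4.52 for Ctse, a cathepsin, and -4.98, -2.31, -5.73 and -3.46 for Ptprd, a receptor phosphatase. What same-numbered libraries of both genotypes share is not given in the labels.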
